A study of Mus musculus with 21 samples.

Results

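The 8 surfactant and lamellar body genes were followed through single-cell libraries of unchallenged mouse lung, melanoma lung metastases and primary melanomas. They were Sftpc, Sftpa1, Sftpb, Sftpd, Abca3, Lamp3, Napsa and Slc34a2, chosen by name from the 32285 genes of the deposited matrix, and all 8 were present. Fragments of MT-ret melanoma had been grafted under the skin of mT/mG mice, whose own cells carry membrane tdTomato in every tissue because no Cre was present. The grafted mice were young adults of both sexes, primary tumors were resected, and metastases then grew in the lung. Host cells of the tumor microenvironment (TME) were sorted as living tdTomato+ cells, with or without depletion of CD45+ cells, and unlabelled melanoma (MM) cells were sorted separately. Unchallenged lung, the control, came from lungs without tumor, and no age is stated for those mice. Cell suspensions of all groups had been cryopreserved. The labels do not say which libraries were depleted of CD45+ cells, so the share of leukocytes in a library was set in part by the sort.

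After libraries with identical values were counted once, 100359 cells in 16 libraries remained. Unchallenged lung gave 4 libraries, lung metastasis TME 4, primary tumor TME 4, sorted metastasis MM cells 2 and sorted primary MM cells 2. Depth ranged from 1777036 to 60339415 unique molecular identifiers (UMIs) per library. Replicate 6 of unchallenged lung stood apart with 25966 cells and a median of 1605 UMIs per cell, against 3641 to 4695 in the other 3 lung libraries. Its deposited name carries run 3, as do those of lung replicate 5 and of replicates 5 and 6 of both TME groups. The labels do not say what a run stands for. The deposited library names carry a mouse number. The library given here as lung replicate 1 is named as control lung number 2, and took its replicate number as the 1 title left over, which leaves its group as named. The lung libraries came from 4 mice (5, 15, 19 and 20) that gave no tumor library. Metastasis TME replicates 5 and 6 were named for mice 17 and 18, as were primary tumor TME replicates 5 and 6. The same values were also deposited under mice 21 and 22 in both tissues. Those of metastasis replicate 6 appeared once more, under a sorted tumor name of mouse 21. The mouse of these libraries is thus known only from the names used here. Replicates 1-3 pooled mice 2 and 3 in the metastasis and mice 1, 2 and 3 in the primary tumor. Replicate 4 came from mouse 14 in the metastasis and from mouse 13 in the primary tumor. At most 1.47% of the 10x barcodes of the smaller library recurred in any other library.

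Pulmonary surfactant is a film of phospholipid and protein that lowers surface tension in the alveolus. It is made by alveolar type 2 (AT-2) cells, stored in lamellar bodies and released by exocytosis. Club cells, the secretory cells of the small airways, are known to make some of the surfactant proteins but not mature surfactant protein C. Among the members, Sftpb and Sftpc encode the hydrophobic proteins that spread the film, and Sftpa1 and Sftpd encode the collectins, soluble lectins of innate defense. Napsa encodes an aspartic protease that processes surfactant protein precursors. Abca3 is the lipid transporter of the lamellar body membrane, Lamp3 is a glycoprotein of that membrane, and Slc34a2 is the apical sodium-phosphate cotransporter of AT-2 cells.

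In GRCm38 with GENCODE M21 annotation, Sftpa1 lies at chr14:41131782-41136452 on the plus strand and Sftpd at chr14:41172214-41185149 on the minus strand. Sftpc lies on the same chromosome at chr14:70520949-70524081, minus strand. Sftpb is at chr6:72304610-72314371, Abca3 at chr17:24351950-24410201, Lamp3 at chr16:19653378-19706375, Napsa at chr7:44572380-44586862 and Slc34a2 at chr5:53038081-53071664. All are protein-coding. Abca3, Napsa and Slc34a2 each overlap annotated genes on the opposite strand, and no source here states whether strand entered the counting.

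RefSeq promoter windows of GRCm38.p6 were held for 5 members (Sftpa1, Sftpb, Abca3, Lamp3 and Slc34a2). Of these, 3 are shown because they stand for both patterns described further on, Sftpb and Sftpa1 having UMIs in AT-2 and club cells and Lamp3 mostly in AT-2 cells. Each covers the 250 bases before the start annotated by RefSeq, 5′ to 3′ on the gene's own strand. For Sftpa1, Lamp3, Abca3 and Slc34a2 that start lies inside the gene as placed by GENCODE, so that the last bases of the first 3 of these windows, and the whole window of Slc34a2, fall within it. Capitals mark CTCAAG, a core sequence bound by NKX2-1, the transcription factor that drives surfactant genes.
Sftpb, chr6:72304360-72304609, plus strand: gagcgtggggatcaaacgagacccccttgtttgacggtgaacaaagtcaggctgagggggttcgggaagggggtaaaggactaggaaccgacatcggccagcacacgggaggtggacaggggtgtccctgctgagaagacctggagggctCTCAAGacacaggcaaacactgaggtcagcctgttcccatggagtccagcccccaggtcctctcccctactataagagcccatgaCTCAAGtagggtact
Sftpa1, chr14:41131538-41131787, plus strand: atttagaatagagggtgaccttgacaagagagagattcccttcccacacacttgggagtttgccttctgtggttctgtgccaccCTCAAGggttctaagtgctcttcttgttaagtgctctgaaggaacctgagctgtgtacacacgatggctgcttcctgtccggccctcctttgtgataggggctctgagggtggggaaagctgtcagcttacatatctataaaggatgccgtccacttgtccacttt
Lamp3, chr16:19706366-19706615, minus strand: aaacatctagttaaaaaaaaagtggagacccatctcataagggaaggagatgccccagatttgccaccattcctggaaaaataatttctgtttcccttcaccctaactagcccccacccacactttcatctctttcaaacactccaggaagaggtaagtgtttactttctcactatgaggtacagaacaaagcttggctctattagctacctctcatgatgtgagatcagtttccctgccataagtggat

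CTCAAG was searched on both strands. The Sftpb window held 2 matches, beginning 100 and 15 bases before the start, and the Sftpa1 window held 1, beginning 166 bases before it. The windows of Lamp3, Abca3 and Slc34a2 held none. Of 27025 gene promoters of the same length, 13.6% held at least 1 match. TGTTTNC, a core bound by FOXA factors, was found once in Sftpb and at 2 places in Lamp3, and in 17.9% of all promoters. The Slc34a2 window begins inside the annotated gene, at a start site downstream of the first. A match in these letters is a description and not a bound site.

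Cells were grouped anew with the 8 genes left out of the clustering, so that their own level did not decide which cells were grouped together. The clusters were then named from marker lists. The AT-2 cluster held 1338 cells (2210 with the members kept in the clustering, 1523 at resolution 1.0), and all 16 listed AT-2 markers were raised in it. Sftpc, Sftpa1, Sftpb, Slc34a2, Lamp3 and Sftpd were among its leading genes. The club cluster held 1596 cells with 10 of 10 club markers raised. No cluster was named AT-1. AT-2 cells numbered 19, 9, 189 and 927 in lung replicates 1, 4, 5 and 6. In the metastasis TME they numbered 12, 170 and 8 in replicates 1-3, 5 and 6, and none was found in replicate 4. Primary tumor TME held 0 AT-2 cells.

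In AT-2 cells the 8 genes together took between 5.28% and 23.0% of all UMIs. Levels are given as CPM, a gene's UMIs divided by all UMIs of the library's cells of that class and multiplied by 1000000, and since 1 UMI stands for 1 captured 3′ end, CPM needs no correction for gene length. The summed level was 213123, 205440, 149462 and 52844 CPM in lung replicates 1, 4, 5 and 6. In metastasis replicates 1-3, 5 and 6 it was 229508, 188975 and 136067 CPM. The metastasis libraries lay within or just above the range of the lung libraries, and the lowest value was that of lung replicate 6.

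Sftpc was the most abundant member in each of these 7 libraries and made up 67.6% to 84.6% of the member UMIs in AT-2 cells. Its level was 168834, 173782, 114792 and 35749 CPM in lung replicates 1, 4, 5 and 6. In metastasis replicates 1-3, 5 and 6 it was 190387, 153647 and 105134 CPM. Both groups overlapped, and lung replicate 6 was the lowest library.

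**Figure D1:**
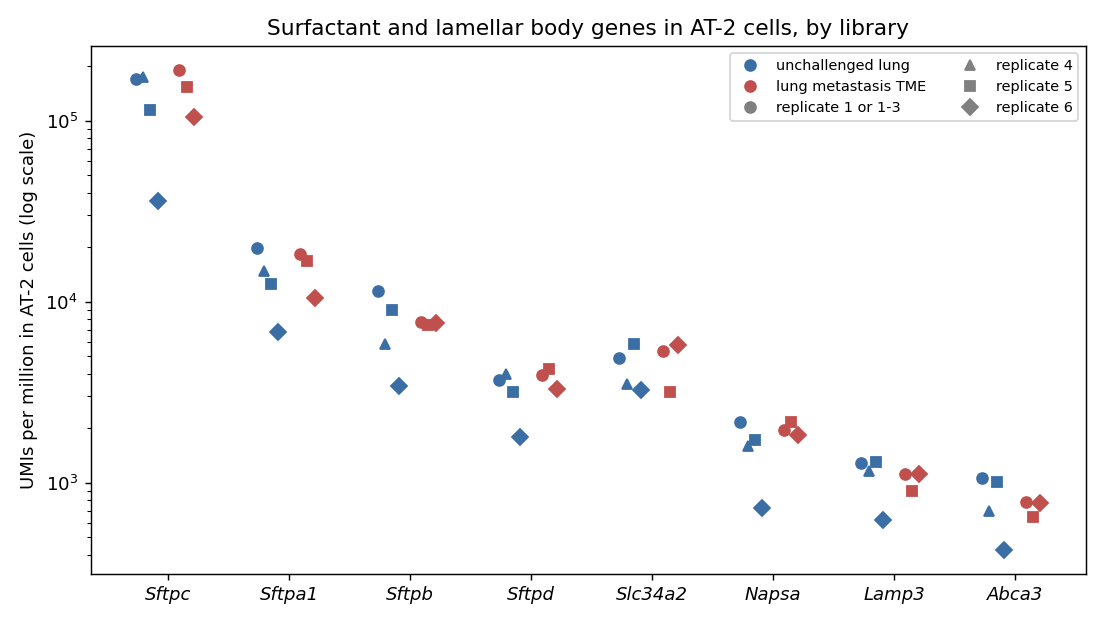
Level of each member in AT-2 cells, in CPM on a log axis, with 1 point for each library of unchallenged lung (blue) and lung metastasis TME (red). Sftpc lies highest, between 35749 and 190387, and lung replicate 6 (blue diamonds) is the lowest library for 7 of the 8 genes and close to the lowest for Slc34a2.

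Sftpb, whose protein is needed to form the surface film, was at 11467, 5876, 9041 and 3431 CPM in lung replicates 1, 4, 5 and 6. In metastasis replicates 1-3, 5 and 6 it was at 7734, 7453 and 7620 CPM. The metastasis libraries sat together, inside the lung range.

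Among the collectins, Sftpa1 was at 19706, 14842, 12555 and 6824 CPM in the lung libraries and at 18276, 16755 and 10526 CPM in the metastasis libraries, in the same order. Sftpd was at 3703, 3972, 3167 and 1799 CPM in lung and 3917, 4245 and 3315 CPM in metastasis. Sftpa1 exceeded Sftpd in all 7 libraries, and neither gene separated the groups.

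Of the lamellar body genes, Abca3 was at 1065, 697, 1011 and 428 CPM in lung and 779, 651 and 775 CPM in metastasis. Lamp3 was at 1290, 1161, 1303 and 623 CPM in lung and 1119, 905 and 1119 CPM in metastasis. Both membrane genes were again lowest in lung replicate 6 and overlapped between groups. The processing protease Napsa was at 2158, 1603, 1728 and 723 CPM in lung and 1949, 2163 and 1830 CPM in metastasis. Slc34a2, the phosphate transporter, was at 4900, 3507, 5865 and 3268 CPM in lung and 5346, 3156 and 5747 CPM in metastasis. For Slc34a2 the lowest library was metastasis replicate 5.

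The comparison of AT-2 cells asked whether surfactant genes differ between metastasis-bearing and unchallenged lung. In libraries with 20 or more AT-2 cells (lung replicates 5 and 6, metastasis replicate 5), edgeR's quasi-likelihood test called 0 of 10902 genes after Benjamini-Hochberg adjustment, a background of 0%. At an unadjusted p under 0.05 it had 876 genes, and DESeq2 called 52. The count of members called was 0 of 8. The metastasis arm of this fit was 1 library, assumed to vary like the 2 lung libraries, and in simulated counts the fit recovered 0% of changes of 1 or 2 log2 units, so a count of 0 says nothing about whether the members differed. Sftpc differed by 1.22 on the log2 scale (SE 0.87, adjusted p = 0.683, edgeR), higher in metastasis. The other differences ranged from -0.30 for Slc34a2 to 1.03 for Napsa, with adjusted p-values from 0.661 to 0.987. The median over the 8 members was 0.74, beside -0.09 over all genes tested.

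These sizes rested on lung replicate 6. Without it the difference was 0.53 for Sftpc and -0.53 for Abca3, and without lung replicate 5 it was 2.52 and 1.02, values from 1 library against 1 with no test. When each library with 5 or more AT-2 cells entered (4 lung, 3 metastasis), the 8 members differed by -0.21 to 0.28, with adjusted p-values from 0.779 to 0.976, and their median was 0.07. This fit called 7 of 2465 genes, or 0.284%, and no member. In simulated counts with the same libraries it recovered 40.5% of changes of 2 log2 units and 9.38% of changes of 1 unit. Larger changes were not simulated.

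Within a library the AT-2 cells varied widely in how much of their RNA came from the 8 genes. The median cell held 21.4%, 22.1%, 15.2% and 3.38% in lung replicates 1, 4, 5 and 6, and 22.4%, 15.1% and 12.9% in metastasis replicates 1-3, 5 and 6. Cells under 5% made up 69.6% of the AT-2 cells in lung replicate 6, 9.52% in lung replicate 5 and 27.6% in metastasis replicate 5. The upper quartile of lung replicate 6 (5.55%) lay below the lower quartile of lung replicate 5 (11.6%).

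**Figure D2:**
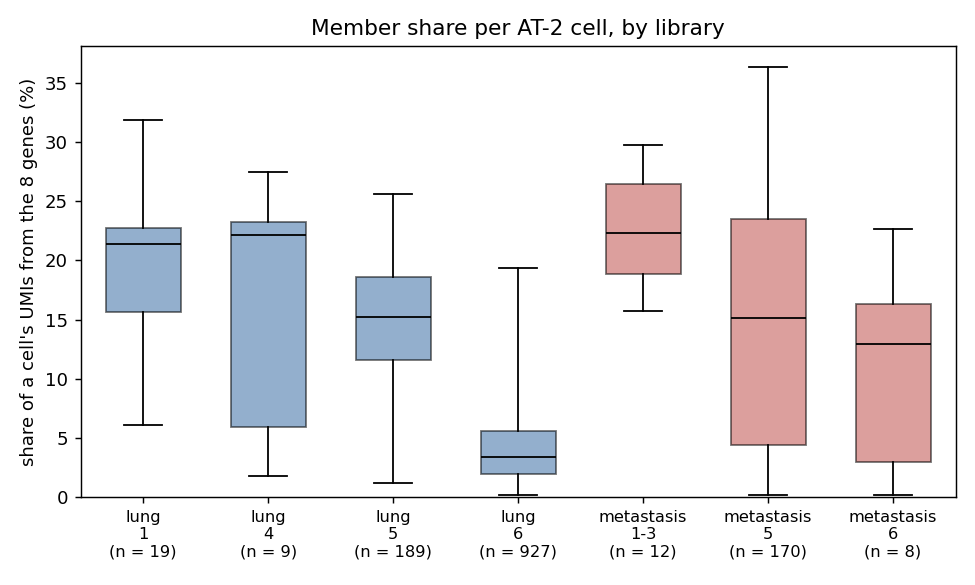
Share of each AT-2 cell's UMIs that came from the 8 genes, by library, in percent. Boxes span the quartiles, the line is the median and whiskers reach the lowest and highest cell, with blue for unchallenged lung and red for lung metastasis TME. The median of lung replicate 6, 3.38%, lies under those of the other 6 libraries (12.9% to 22.4%).

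Among AT-2 cells with 3000 or more UMIs the median share was 4.35% in lung replicate 6 (117 cells), 15.6% in lung replicate 5 (161 cells) and 23.2% in metastasis replicate 5 (93 cells). Depth above 3000 UMIs was not matched between these libraries. In metastasis replicate 5 the median share was 2.81% in cells under 1500 UMIs (30 cells) and 6.89% in cells of at least 1500 but under 3000 UMIs (47 cells). In lung replicate 6 it was 3.49% under 1500 UMIs (361 cells) and 3.204% from 1500 to under 3000 UMIs (449 cells). The median share thus differed widely with depth in metastasis replicate 5 and little in lung replicate 6. Pooled over the cells of a depth class, from low to high depth, the share in lung replicate 6 was 4.08%, 4.30% and 7.83%. In metastasis replicate 5 the pooled share was 4.56%, 7.81% and 21.9%.

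Some marker lists of other cells differed between these libraries. The summed macrophage list was not raised in lung replicate 6. The neutrophil list (5 of 5 markers detected) summed to 5415 CPM in the AT-2 cells of lung replicate 6, against 0 to 393 CPM in the other 3 lung libraries and 44.6 to 64.6 CPM in the metastasis libraries, where 1 to 3 of 5 were detected. The monocyte list summed to 977 CPM there and to 0 to 195 CPM in the other lung libraries, and the B-cell list to 1338 CPM there against 0 to 139 CPM. The macrophage list summed to 14986 CPM there (11 of 11 markers detected) and to 15416 to 21667 CPM in the other lung libraries (3 to 11 of 11). In metastasis it summed to 14767 to 18268 CPM (4 to 8 of 11). The sum was not split by marker, so it does not show how much came from macrophages. The melanoma list summed to 929 to 6436 CPM in AT-2 cells of the metastasis libraries (6 to 9 of 9 markers) and 284 to 469 CPM in lung (2 to 6 of 9). Their part in the differences was not tested.

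The genes that work with the members in AT-2 cells were read from lists. Of 17 genes of surfactant lipid synthesis, all were tested in the 3-library fit and 15 in the 7-library fit, and none was called in either. Scd1, a fatty acid desaturase, was at 3899, 1835, 3016 and 1092 CPM in lung and 1419, 1718 and 2110 CPM in metastasis, and Lpcat1, which makes the saturated lecithin of surfactant, was at 633 to 1351 CPM over all 7 libraries. The list's median difference was -0.10 in the 3-library fit. Of 8 genes of proprotein processing, 7 were tested in the 3-library fit and 5 in the 7-library fit, and none was called. Among them Ctsh, a cathepsin that trims surfactant proteins, differed by 0.83 (SE 0.35, edgeR adjusted p = 0.365) in the 7-library fit. Its level was 296 to 515 CPM in lung and 600 to 857 CPM in metastasis.

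Of the lamellar body and secretion list 10 of 12 genes were tested, of the transcription factor list 10 of 10, and of the recycling and clearance list 8 of 8 in the 3-library fit (4, 8 and 2 genes in the 7-library fit), and none was called in either. The median differences of these lists were 0.25, -0.42 and -2.52 in the 3-library fit, and -0.29, -0.18 and 0.48 in the 7-library fit. For recycling and clearance the 2 medians rest on 8 genes and on 2. Those 2, Prdx6 and Adgrf5, differed by 1.20 and -0.45 in the 3-library fit, so the median of -2.52 does not describe them. Npc2, a sterol carrier found in lamellar bodies, differed by 0.87 (edgeR adjusted p = 0.376, 7-library fit), with 1504 to 4227 CPM in lung and 3918 to 6514 CPM in metastasis. Nkx2-1 was at 440, 255, 716 and 318 CPM in lung and 330, 239 and 495 CPM in metastasis. It overlapped between groups.

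In the lists of neighboring alveolar states, alveolar type 1 genes (6 of 8 tested) and transitional genes (9 of 10 tested) held no call in the 3-library fit. In the 7-library fit 2 and 5 of them were tested and none was called. Of the 5 transitional genes 4 had an unadjusted p under 0.05, beside 278 of all 2465 genes tested (edgeR), and their median difference was 0.98, beside -0.06 over all genes. Lgals3, a galectin of the transitional state, was at 58, 46, 75 and 335 CPM in lung and 400, 759 and 323 CPM in metastasis (difference 1.84, SE 0.53, edgeR adjusted p = 0.225, 7-library fit), with lung replicate 6 inside the metastasis range. The one listed gene that passed was Lcn2, an acute-phase siderophore-binding protein, of the acute phase and stress list (5 of 8 tested in the 7-library fit). It was at 596, 511, 309 and 310 CPM in lung and 1249, 2558 and 1701 CPM in metastasis, a rise of 2.08 on the log2 scale (SE 0.38, edgeR adjusted p = 0.022). Lcn2 did not pass in the 3-library fit, where no gene did. With 1 of the 7 libraries left out it lay at 1.69 to 2.39 and the call was lost without lung replicate 4 or 5 or metastasis replicate 5 or 6 (edgeR adjusted p = 0.106, 0.076, 0.573 and 0.090).

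Club cells held UMIs of the same genes in other proportions. Club cells numbered 50 and 1388 in lung replicates 5 and 6, and 85 and 52 in metastasis replicates 5 and 6. Sftpa1 was at 1586 and 861 CPM in these lung libraries and at 1284 and 935 CPM in the metastasis libraries. Sftpb was at 759, 440, 916 and 373 CPM, in the same order, and Sftpd at 623, 382, 658 and 659 CPM. Sftpc, the leading gene of AT-2 cells, was at 333, 1384, 322 and 159 CPM. Sftpa1 was the highest member in 3 of the 4 libraries, and in lung replicate 6 Sftpc was higher.

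The remaining members were low in club cells. Abca3 was at 157 and 97.4 CPM in lung and 74.6 and 82.8 CPM in metastasis, and Slc34a2 at 75.2 and 181 CPM and at 61.7 and 151.8 CPM. Napsa was at 21.5 and 117 CPM in lung and 28.3 and 10.3 CPM in metastasis. Lamp3 was represented by 3, 101, 1 and 13 UMIs in lung replicates 5 and 6 and metastasis replicates 5 and 6, at or under the 3-count floor in both replicates 5.

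**Figure D3:**
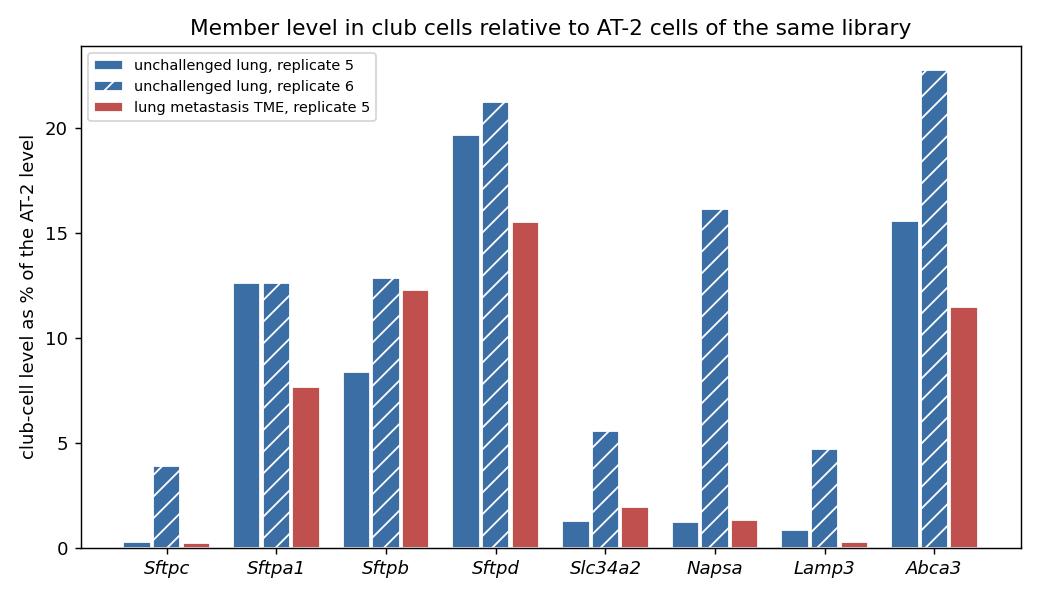
Level of each member in club cells as a percent of its level in AT-2 cells of the same library, for the 3 libraries with at least 20 cells of both types. Bars for Sftpd reach 15.5% to 21.2% and those for Sftpa1 7.66% to 12.6%, while Sftpc reaches 0.21% to 3.87%, its highest value in lung replicate 6.

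The club level was set against that of AT-2 cells of the same library. In the 3 libraries with 20 or more cells of both types, the club level of Sftpd was 15.5% to 21.2% of the AT-2 level, and that of Abca3 11.5% to 22.8%. In lung replicate 6, where Abca3 stood at 22.8%, its club level was 97.4 CPM and its level in blood endothelial cells 103.5 CPM. Sftpb reached 8.39% to 12.8% and Sftpa1 7.66% to 12.6%. Slc34a2 reached 1.28% to 5.55%, Napsa 1.24% to 16.2%, Lamp3 0.28% to 4.72% and Sftpc 0.21% to 3.87%. The highest value of each of the last 4 genes was that of lung replicate 6. With 3 libraries an exact paired permutation cannot pass 0.05, so these shares are given as a description.

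The share of Sftpa1 in the Sftpa1 and Sftpc UMIs was higher in club cells than in every other class with 30 or more such UMIs. Among classes outside the epithelium it reached 29.6%. Like shares of Napsa, Abca3, Lamp3 and Slc34a2 overlapped between club cells and classes outside the epithelium (Napsa 6.06% to 8.09% against 0% to 100%). That of Sftpd overlapped between club cells and ciliated cells. Sftpa1 made up 82.6% of the Sftpa1 and Sftpc UMIs in club cells of lung replicate 5, 80.0% in metastasis replicate 5 and 85.5% in metastasis replicate 6. In lung replicate 6 it made up 38.4%. In AT-2 cells the same share was 7.87% to 16.0% over 7 libraries. In ciliated cells (RCC, respiratory ciliated cells) it was 11.8% to 18.4%, close to the AT-2 share and far from the club share. The largest ciliated cluster (7879 cells, 7 of 7 RCC markers raised) was mixed. It also had 4 of 5 neutrophil, 6 of 11 macrophage and 5 of 10 club markers raised.

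**Figure D4:**
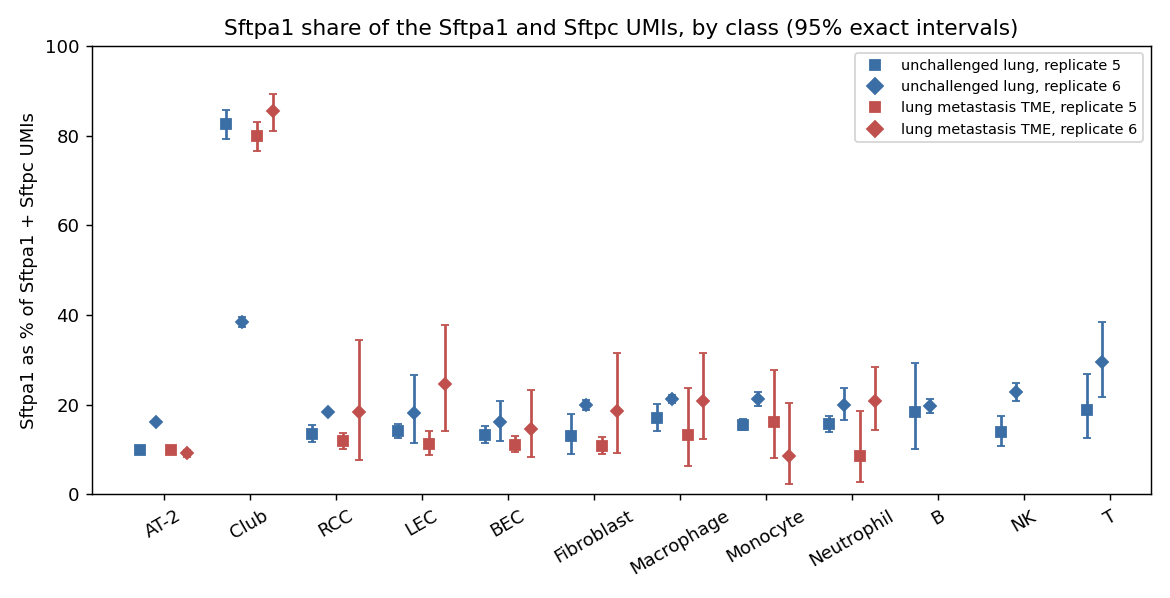
Sftpa1 as a percent of the UMIs of Sftpa1 and Sftpc, by cell class, for the 4 run 3 libraries of lung and lung metastasis TME with 30 or more such UMIs in the class. Bars are 95% exact binomial intervals and cover counting error only. Club cells lie at 38.4% to 85.5%, and AT-2 cells at 9.10% to 16.0%.

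Per cell, depth was equalized by thinning each cell to 1000 UMIs. A Sftpa1 UMI was then found in 50.0% of club cells in lung replicate 5 (95% Clopper-Pearson interval 35.5% to 64.5%), 40.8% in lung replicate 6 (38.2% to 43.5%), 38.6% in metastasis replicate 5 (28.1% to 49.9%) and 21.2% in metastasis replicate 6 (11.1% to 34.7%). Before thinning the shares were 68.0%, 53.7%, 55.3% and 26.9%. Lamp3 was found in 0 of 50 thinned club cells of lung replicate 5, which allows a share of up to 6.0%, and in 63.0% of its AT-2 cells (55.7% to 69.9%). In lung replicate 6 and metastasis replicate 5 it was found in 39.4% and 49.7% of AT-2 cells and in 2.37% and 0% of club cells (0 of 83 cells, which allows up to 3.61%). Many AT-2 cells thus held no Lamp3 UMI at this depth.

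Club cells of metastasis and unchallenged lung were compared with edgeR in the 4 libraries with 20 or more of them. The test called 64 of 4498 genes, 25 higher and 39 lower in metastasis (1.42%), and 0 of the 6 members that passed the filter on low counts. Sftpc differed by -1.57 (SE 0.72, adjusted p = 0.497, edgeR), Sftpa1 by -0.02 (SE 0.63), Sftpb by 0.31 and Sftpd by 0.48. Abca3 and Slc34a2 differed by -0.59 and -0.28, with adjusted p-values of 0.81 and 0.95 (edgeR). The median over the 6 members was -0.15, beside 0.04 over all genes. Lamp3 and Napsa did not pass the filter. With 1 library left out Lamp3 entered all 4 fits, with differences of -2.52 to 0.82. Napsa entered 3 of 4, with differences of -3.03 to -0.87. Napsa was called in the fit without lung replicate 5, whose lung arm is replicate 6 alone, the library in which Napsa was highest. That fit called a larger share of all genes than the main fit, so the call is not particular to Napsa.

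The count of called genes depended on single libraries, with 501 without lung replicate 5, 36 without lung replicate 6, 0 without metastasis replicate 5 and 12 without metastasis replicate 6. In simulated counts this comparison recovered 0% of changes of 1 or 2 log2 units. Markers of immune cells were high in club cells of lung replicate 6, with every listed marker detected. There the macrophage list summed to 7410 CPM (401 to 845 CPM in the other 3 libraries compared), the neutrophil list to 4507 CPM (33.4 to 258 CPM), the monocyte list to 748 CPM (20.6 to 204 CPM) and the B-cell list to 732 CPM (23.2 to 359 CPM). Their part in the Napsa and Sftpc values was not tested.

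In club cells the lists gave 1 call. None of 15 tested genes of lipid synthesis, 7 of processing, 7 of the lamellar body, 8 transcription factors, 2 of recycling, 6 alveolar type 1 genes or 6 transitional genes was called. Lcn2 rose by 3.95 on the log2 scale (SE 0.73, edgeR adjusted p = 0.018), from 14.3 and 43.3 CPM in lung to 180 and 842 CPM in metastasis. The call was lost without lung replicate 6 (4.84, edgeR adjusted p = 0.080), metastasis replicate 5 (4.52, adjusted p = 0.578) or metastasis replicate 6 (2.99, adjusted p = 0.199). The melanoma list moved with the same groups in club cells, at 233 and 208 CPM in lung (1 and 6 of 9 markers) and 5229 and 1590 CPM in metastasis (9 of 9 in both), and its part was not tested. Lgals3 was at 107 and 376 CPM in lung and 581 and 1056 CPM in metastasis (1.81, adjusted p = 0.295, edgeR). Nkx2-1 was at 319 and 105 CPM in lung and 84.9 and 145 CPM in metastasis.

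Cells outside the epithelium were all cells but those of the AT-2, club and ciliated clusters, so cells of the melanoma clusters were among them. These made up 2858 of 4606 such cells in metastasis TME replicate 5 and 329 of 926 in replicate 6. In all lung libraries together there was 1, and in primary tumor TME there were 152. Outside the epithelium, Sftpc was found in lung and metastasis and was at or near 0 in primary tumor. It was at 71.3, 16.8, 341.5 and 516 CPM in lung replicates 1, 4, 5 and 6. In metastasis replicates 1-3, 4, 5 and 6 it was at 19.9, 8.73, 263 and 155 CPM. In primary tumor TME it was at 0.52, 0, 0 and 3.40 CPM, from 2, 0, 0 and 23 UMIs. Every lung and metastasis library was above every primary tumor library, also within each of the 3 runs given in the library names.

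Of the 8 members, 6 were higher in all lung libraries than in all primary tumor libraries (Sftpa1, Sftpc, Sftpd, Abca3, Lamp3 and Slc34a2), beside 12.0% of 18979 genes over these cells. In the metastasis TME 3 members did so (Sftpa1, Sftpc and Sftpd), beside 2.11% of 17733 genes. Sftpa1 was at 7.58, 2.16, 59.96 and 136 CPM in lung, at 4.17, 3.27, 33.6 and 29.96 CPM in metastasis and at 0 UMIs in all 4 primary tumor libraries. Sftpb did not separate, because primary replicate 6 held 5 UMIs (0.74 CPM), above lung replicate 4. No member reached an adjusted p under 0.05 over the 24 member comparisons, the lowest exact permutation p being 0.029 (adjusted 0.069), which is the smallest that 4 against 4 libraries allow.

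The summed level of the 8 genes in these cells was 359, 292, 804 and 1111 CPM in lung replicates 1, 4, 5 and 6. It was 244, 195, 353 and 307 CPM in metastasis replicates 1-3, 4, 5 and 6 and 255, 147, 34.7 and 27.5 CPM in the primary tumor libraries. On the log2(CPM + 1) scale lung exceeded primary tumor by 2.82 (9.11 ± 0.92 against 6.30 ± 1.55, SD, n = 4 each, two-sided exact permutation p = 0.029). Metastasis exceeded primary tumor by 1.77 (8.07 ± 0.37 against 6.30 ± 1.55, n = 4 each, exact permutation p = 0.086), with 2 metastasis libraries under the highest primary tumor library. Without Napsa and Abca3, which were also found in cells of primary tumor as described next, the differences were 6.64 and 5.41, each with an exact permutation p of 0.029. That choice was made after the values were seen. The tests of metastasis against primary tumor, those of single members included, treat libraries of the same mice as independent. Taken within the 3 numbers that share mice (replicates 1-3, 5 and 6), also chosen after the values were seen, the difference was 2.23 for the 8 members (exact paired permutation p = 0.50) and 5.94 for the 6 members (exact p = 0.25, the smallest that 3 pairs allow).

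Within a library Sftpc was found in many classes outside the epithelium. In lung replicate 5 it lay between 213 and 610 CPM over 9 classes, in lung replicate 6 between 187 and 891 CPM over 9 classes and in metastasis replicate 5 between 193 and 713 CPM over 7 classes. In metastasis replicate 4, which held no AT-2 cell, it lay between 0 and 12.2 CPM over 7 classes. In B cells, which make no surfactant, Sftpc was at 262 and 819 CPM in lung replicates 5 and 6, against 360 and 346 CPM in BEC.

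**Figure D5:**
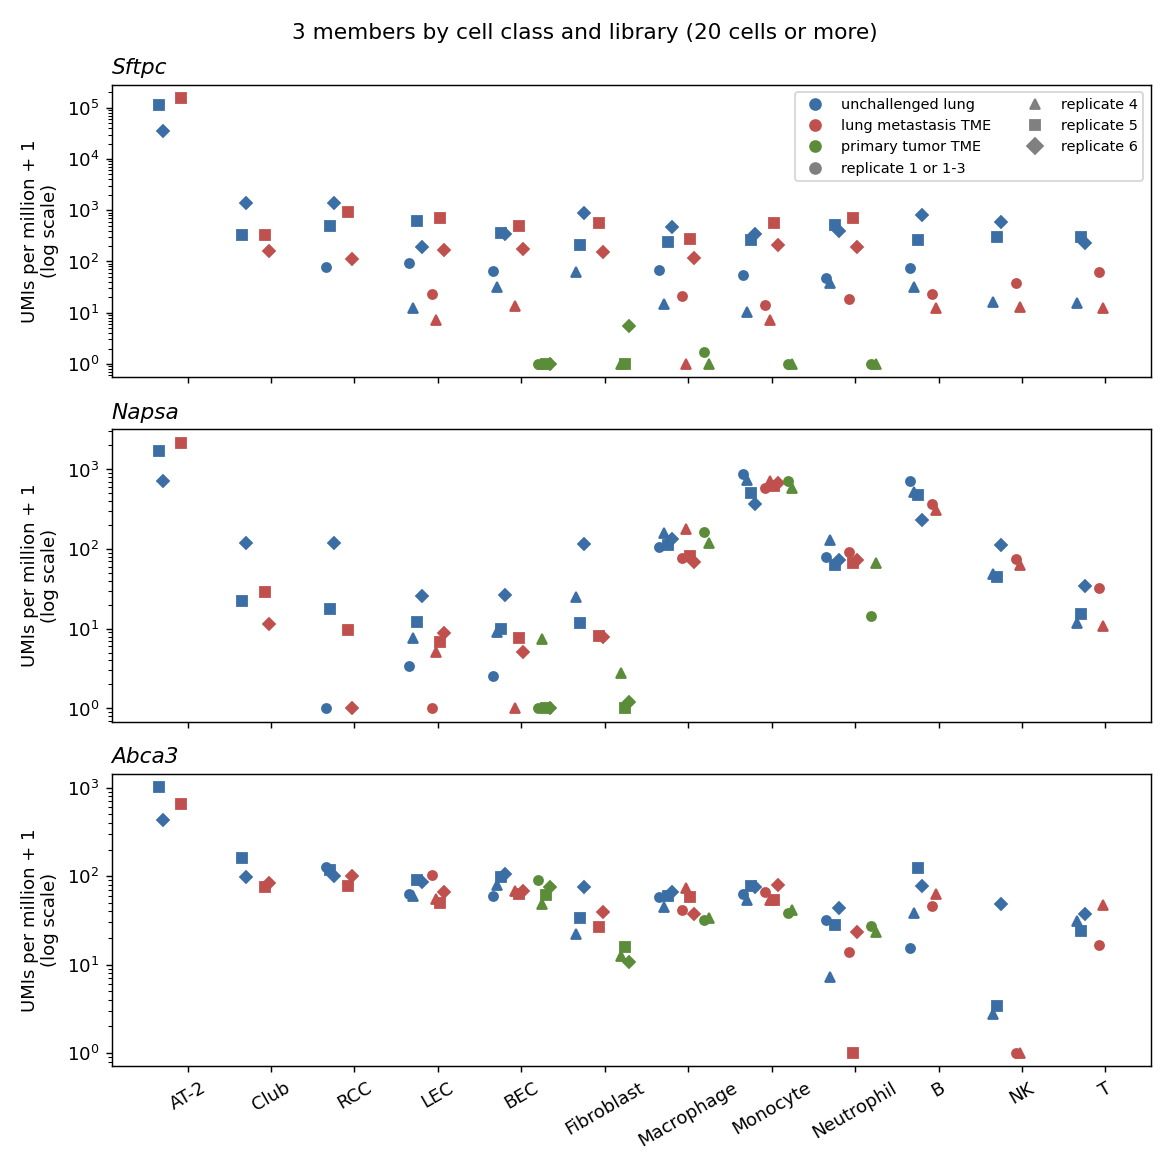
Sftpc, Napsa and Abca3 in CPM plus 1, on a log axis, by cell class, with 1 point for each library that holds 20 or more cells of the class. Sftpc is spread over many classes of lung (blue) and metastasis (red), with 0 to 12.2 CPM in metastasis replicate 4, and is at or near 0 in primary tumor (green), whereas Napsa in monocytes and Abca3 in endothelium lie at like levels in all 3 tissues.

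Proportions among the members outside the epithelium were set against those of the AT-2 cells of the same library. The share of Sftpa1 in the Sftpa1 and Sftpc UMIs was 9.61% outside and 10.5% in AT-2 cells in lung replicate 1, where the 95% interval of the outside value (7.07% to 12.7%) held the AT-2 value. In metastasis replicate 5 it was 11.3% outside (10.6% to 12.1%) and 9.83% in AT-2 cells. In lung replicates 5 and 6 it was 14.9% and 20.8% outside, against 9.86% and 16.0% in AT-2 cells, with intervals of 14.2% to 15.7% and 20.3% to 21.4% that did not reach the AT-2 values. It was 11.3% outside against 7.87% in AT-2 cells in lung replicate 4, 17.3% against 8.76% in metastasis replicate 1-3 and 16.2% against 9.10% in metastasis replicate 6. Lung replicate 1 was thus the exception, and in the other libraries the outside share was above the AT-2 share, with intervals that did not hold it. Sftpd against Sftpc was higher outside in lung replicates 5 and 6 (4.604% against 2.68% and 7.59% against 4.79%) and in metastasis replicate 6 (7.03% against 3.06%), and lower in metastasis replicate 5 (2.22% against 2.69%). Slc34a2 against Sftpc was at 12.5% outside and 8.38% in AT-2 cells in lung replicate 6, and at 1.85% outside and 5.18% in AT-2 cells in metastasis replicate 6. The level outside was 0.0088% to 0.0345% of the AT-2 level in lung replicate 4 for the 6 members other than Napsa and Abca3, and 1.44% to 2.40% in lung replicate 6.

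Thinned to 1000 UMIs, a Sftpc UMI was found in 35.3% of blood endothelial cells (BEC) of lung replicate 5 (95% Clopper-Pearson interval 32.0% to 38.7%) and in 43.9% of those of metastasis replicate 5 (40.3% to 47.7%). In BEC of primary replicate 6 it was found in 0 of 254 cells, which allows a share of up to 1.18%. Club cells of the same libraries held a Sftpc UMI at 34.0% and 31.3%, with median depths of 3949 and 2756 UMIs against 3044.5 and 1834 UMIs in BEC. In lung replicate 6 the club share of Sftpc was 28.2% against 18.9% in BEC, and in metastasis replicate 6 it was 13.5% against 23.1%. In 3 of 4 libraries the club share did not exceed that of endothelium. In lung replicate 6 Sftpc stood at 1384 CPM in club cells against 187 to 891 CPM in the 9 classes outside the epithelium. The part of free RNA in these values was not tested. For Sftpa1 the BEC shares were 6.77% and 5.66% in lung replicates 5 and 6 and 7.61% and 3.42% in metastasis replicates 5 and 6, all under the club shares given above.

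Napsa had a second pattern. Monocytes held it at 883, 733, 506 and 364.5 CPM in lung replicates 1, 4, 5 and 6, at 587, 724, 624.7 and 670 CPM in metastasis replicates 1-3, 4, 5 and 6 and at 706 and 580 CPM in primary replicates 1-3 and 4. The tissues overlapped, and the primary tumor libraries, where Sftpc was at 0 CPM in monocytes, were as high as the others. Lung and primary tumor differed by -0.12 on the log2(CPM + 1) scale (exact permutation p = 0.933, adjusted 1.0 over 13 tests). B cells held Napsa at 710, 524, 483 and 230.1 CPM in lung and at 362 and 312 CPM in metastasis replicates 1-3 and 4. Macrophages were lower, at 68.1 to 176 CPM over 10 TME and lung libraries, and T cells were at 9.88 to 33.3 CPM over the 5 lung and metastasis TME libraries with 20 or more of them.

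Outside the epithelium as a whole, Napsa was lower in all metastasis libraries (171, 139, 5.99 and 55.8 CPM) than in all lung libraries (211, 229, 237 and 181 CPM). This was the only member to do so, beside 2.80% of 19011 genes, and its difference of -1.95 had an exact permutation p of 0.029 (adjusted 0.069). The share of monocytes among these cells was 14.3% to 31.5% in lung and 19.7%, 7.11%, 0.83% and 5.29% in metastasis replicates 1-3, 4, 5 and 6. Cells of the melanoma clusters, 2858 of 4606 and 329 of 926 in metastasis replicates 5 and 6, held Napsa at 1.92 and 4.06 CPM. Within monocytes metastasis exceeded lung by 0.14 (exact permutation p = 0.686). Macrophages and B cells went the other way, at -0.43 and -0.42 (exact permutation p = 0.257 and 0.533). The part of these shares and classes in the lower Napsa level was not tested.

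Abca3 too was found outside the epithelium in every tissue. BEC held it at 58.6 to 103.5 CPM in lung, 61.5 to 67.3 CPM in metastasis replicates 4 to 6 and 47.1 to 90.6 CPM in primary tumor, where no Sftpc UMI was found in BEC. The difference between lung and primary tumor was 0.30 (exact permutation p = 0.257, adjusted 0.669 over 13 tests). Cells of the LEC cluster, in which 6 of 6 LEC and 9 of 9 BEC markers were raised, held it at 48.9 to 102.4 CPM over 8 lung and metastasis libraries. In fibroblasts with 20 or more cells it was at 21.02, 32.7 and 74.3 CPM in lung and at 11.6, 14.8 and 9.59 CPM in primary tumor (exact permutation p = 0.10, the smallest that 3 against 3 allow). AT-2 cells held 428 to 1065 CPM.

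Lamp3 marks mature dendritic cells in human tissue. In 46 cells outside the epithelium with UMIs of both Ccr7 and Fscn1, genes of mature dendritic cells, 0 Lamp3 UMIs were found, which allows up to 6.52% of such cells to hold a Lamp3 UMI at this depth. In all other lung cells outside the epithelium, 620 Lamp3 UMIs were found, or 7.69 CPM.

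The sum of the members was set against all genes with 20 CPM or more on average in AT-2 cells, over 73 combinations of library and class in lung and metastasis. The 5 genes other than members with the highest Pearson correlation of log2(CPM + 1) were Hc (0.848), Mlc1 (0.828), S100g (0.828), Myh7 (0.824) and Cftr (0.823), out of 6085 candidates with the members. The members' own values were 0.812 to 0.857 for Sftpc, Sftpa1, Sftpb, Sftpd, Lamp3 and Slc34a2, which are part of that sum, and 0.561 and 0.525 for Abca3 and Napsa. The 73 points share libraries, free RNA and depth, so these values describe likeness only.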

How the data were processed

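The authors aligned 10x Genomics 3′ libraries with Cell Ranger 6.1.1 to the mouse genome and deposited UMI counts per gene and cell, with the library of each cell in a metadata table (their processing notes also name Seurat 3.2.2). Of 110283 deposited barcodes under 24 library names, 100359 in 16 libraries were used. 5 names held the same values as another and were counted once. Of these 5, 1 could not be matched to a sample and was not used. It named a sorted tumor library of mouse 21 and held the values of metastasis TME replicate 6. No deposited cluster names were used.

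Cells were clustered with Seurat 5.3.0 on 2000 variable genes without the 8 members (17 components, 20 neighbors, resolution 0.5) and named from marker lists, a name needing 3 raised markers. No doublet caller was run, and an alternative left out the largest 5% of cells. Counts were summed per library and class. Libraries with 20 or more cells entered edgeR 4.0.16 quasi-likelihood fits (TMM, filterByExpr, Benjamini-Hochberg adjustment at 0.05), tested on simulated data, with DESeq2 1.42.0 as an alternative. Sums outside the epithelium were tested by exact permutation over libraries on log2(CPM + 1), two-sided. For metastasis against primary tumor, pairing came from the mouse numbers in the deposited library names. Shares of cells used 1000 UMIs per cell, cells below that left out, and exact 95% intervals, which like the 3-count floors cover counting error only. The named genes were the members and, of each gene list, those with the highest level and any that were called. The members and lists were chosen with earlier results of these data known.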

Additional observations from a re-analysis of the deposited data

Results flagged for a closer look

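Among 34 groups of 4 libraries examined for a value far from the others, 4 results stood apart, and chance sets about 1 in 20 such groups apart. All were cells outside the epithelium in primary tumor TME, with replicate 6 highest, at 3.40 CPM for Sftpc, 0.74 CPM for Sftpb, 0.296 CPM for Sftpd and 0.296 CPM for Lamp3. These rested on 23, 5, 2 and 2 UMIs. The other primary tumor libraries held no UMI of Sftpb, Sftpd or Lamp3. Any UMI in replicate 6 would thus have stood apart for these genes, and the rate of 1 in 20 does not apply to them.

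The sorted melanoma cells entered no comparison. In metastasis MM replicate 4, cells outside the epithelium held Sftpc at 3.85 CPM, Abca3 at 29.8 CPM and Napsa at 34.7 CPM, above the higher of both primary MM libraries (1.76, 21.6 and 0 CPM). In metastasis MM replicate 5, Abca3 was at 22.4 CPM and Slc34a2 at 0.0995 CPM, against 21.6 and 0.0314 CPM. Beside these values, B cells made up 13.6% and macrophages 3.96% of the cells outside the epithelium in metastasis MM replicate 4, and 0% each in replicate 5. In replicate 4 only 396 of these 631 cells were of the melanoma clusters. Those 396 held Napsa at 0.48 CPM (1 UMI), Abca3 at 24.0 CPM and Sftpc at 3.84 CPM. The 63 neutrophils of that library held Napsa at 113 CPM (28 UMIs). The part of these classes in the values was not tested.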

How the results depend on the processing

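Outside the epithelium, the difference of 2.82 between lung and primary tumor kept its direction under each alternative run. It lay at 2.33 to 3.38 with 1 library left out (exact permutation p = 0.057 each, the smallest that 3 against 4 allow). The replicate block over 3 shared numbers gave 3.59 (exact p = 0.25, the smallest possible). Those numbers join different mice of lung and primary tumor. The difference was 2.47 in UMIs per cell (exact p = 0.057) and 1.25 in macrophages alone (exact p = 0.133). For metastasis against primary tumor the block over 4 shared numbers, of which number 4 joins different mice, gave 1.77 (exact p = 0.25), the block over the 3 numbers that share mice 2.23 (exact p = 0.50), and the 6 members without Napsa and Abca3, chosen after seeing the data, gave 5.41 (exact p = 0.029) and 5.94 with that last block (exact p = 0.25).

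In AT-2 cells, where 0 genes were called, DESeq2 called 52, the fit without a filter 594, and the fit with 5 or more cells in a library, added after seeing the data, 7. With 1 library left out the latter called 1 to 25 (25 without lung replicate 1, 21 without lung replicate 6, 18 without metastasis replicate 1-3, 4 and 2 without lung replicates 4 and 5, 8 and 1 without metastasis replicates 6 and 5), and 131 with the replicate block. In club cells, the 64 calls became 463 without a filter, 0 to 501 with 1 library left out and 135 with the replicate block. Same-numbered lung and metastasis libraries came from different mice and did not deviate together (correlations of -0.03 and 0.07 over 2 pairs), so the number does not pair them. The cause of these shifts was not tested.

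Members turned direction as follows, none of them called. In AT-2 cells with 10 or more cells in a library, Sftpb was -0.12, Abca3 -0.26 and Lamp3 -0.12. With 5 or more, Sftpb was -0.059, Abca3 -0.21, Lamp3 -0.14 and Slc34a2 0.031, and Abca3 was -0.018 with the block. In that fit without lung replicate 6, Sftpa1 was -0.15, Sftpb -0.33, Sftpc -0.12, Sftpd -0.011, Abca3 -0.48 and Lamp3 -0.38. Without lung replicate 5, Abca3 was -0.087, Lamp3 -0.049 and Slc34a2 0.19. Without lung replicate 4, Sftpb was -0.16, Abca3 -0.26 and Lamp3 -0.11, and without lung replicate 1 Slc34a2 was 0.14. Without metastasis replicate 1-3, Sftpa1 was -0.033, Sftpb -0.090, Abca3 -0.27 and Lamp3 -0.21. Without metastasis replicate 5, Sftpb was -0.075, Abca3 -0.15, Lamp3 -0.067 and Slc34a2 0.23, and without replicate 6 Abca3 was -0.10, Lamp3 -0.037 and Slc34a2 0.018. With 1 of the 2 main lung libraries left out, Sftpb ranged from -0.17 to 1.53, Abca3 from -0.53 to 1.02, Lamp3 from -0.42 to 0.95 and Slc34a2 from -0.79 to 0.36. In club cells Sftpa1 was 0.024 at resolution 1.0 and 0.021 without the largest 5% of cells, and with 1 library left out it ranged from -0.68 to 0.62, Sftpb from -0.97 to 1.00 and Slc34a2 from -0.70 to 0.31. Lamp3, which was not in the main fit, ranged from -2.52 to 0.82 over the 4 fits with 1 library left out. Napsa, which turned in none of the 3 of these fits it entered, ranged from -3.03 to -0.87 and was called in 1 of them (without lung replicate 5).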
